A study of Mus musculus with 8 samples.

Results

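*Rag1*, *Rag2*, *Dntt*, *Cd4*, *Cd8a*, *Cd8b1*, *Zbtb7b*, *Tox* and *Themis* are genes of the thymocyte recombinase and of the passage through the CD4 CD8 double-positive (DP) stage. These 9 genes were chosen by name from the 21142 mouse protein-coding genes that could be placed with a strand, and each was examined over its body plus 50 kb on either side. The study addressed an enhancer of *Ikzf1* named IkE120, and acetylation of lysine 27 of histone H3 (H3K27ac) was profiled by ChIP-seq in P5424 cells, a mouse line with features of T cell precursors. Of the 8 libraries of the series, 2 are H3K27ac libraries, 1 from unedited (wt) cells and 1 from cells in which IkE120 had been deleted by CRISPR/Cas9 (ΔIkE120). The ΔIkE120 line was expanded from 1 homozygous clone isolated by limiting dilution, so the deletion and the clone cannot be told apart. Both lines were grown in RPMI medium with serum, and the sample labels describe PMA and ionomycin as the stimulus used on P5424 cells without stating whether the ChIP-seq cells had received it. There were no replicates, so the values compare 1 library with another and no test was made.

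RAG1 and RAG2 together form the recombinase that cuts antigen receptor genes at their recombination signals. Thymocytes use it first as double-negative (DN) cells, which carry neither CD4 nor CD8, and again as DP cells, which carry both coreceptors before they settle on the CD4 or the CD8 lineage. H3K27ac marks active promoters and enhancers, and clusters of such elements lie at many genes that define a cell type. P5424 cells were derived, as background knowledge and not from the sample labels, from a thymic tumour of a mouse mutant for *Rag1* and p53. The *Rag1* allele of the line was not analysed here.

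A peak is a stretch of the genome in which a library held more reads than its control, and the deposited lists give its position on build GRCm38. Each peak carries a fold enrichment over the control and a -log10 q-value, which grows as the call becomes less likely to be background. Which control was used for each list is not given in the sources used here. The wt list held 34553 peaks over 25189952 bases, with a median fold enrichment of 3.04 and a median -log10 q of 4.12. The ΔIkE120 list held 29902 peaks over 22143580 bases, with medians of 3.16 and 4.47. All bases covered in ΔIkE120 cells thus came to 0.879 times those in wt cells. Sequencing depth is unknown from peak lists and sets how many weak peaks are called, so fold enrichments and -log10 q-values were ranked within a list and not subtracted between lists.

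Markers of cell types were examined first, at starts where 44.5% of all genes had a peak within 1 kb in wt and 43.9% in ΔIkE120 cells. All 10 of 10 T lineage genes had one in both lists (exact Clopper-Pearson 95% interval 69.2 to 100%), among them *Cd3e*, *Cd3d*, *Cd3g* and *Cd247* of the T cell receptor complex. The highest of these start peaks in wt cells was that of *Cd3e*, with a -log10 q of 24.0. Among 8 B lineage genes, 3 had a start peak in wt cells (*Ebf1*, *Blk* and *Igll1*) and 1 in ΔIkE120 cells (*Ebf1*). The wt share of 37.5% (8.52 to 75.5%) was near that of all genes, so these starts were not shown to be marked less often than those of other genes. *Blk* was the highest of the B lineage, with a -log10 q of 7.27 in wt cells, and *Pax5*, *Cd79a* and *Cd79b* had no start peak in either list. Of 7 myeloid genes that could be placed, *Mpo* and *Cd14* had a start peak in wt cells and *Cd14* alone in ΔIkE120 cells, and with equal numbers of top peaks the wt peak of *Cd14* was lost. Of 6 fibroblast genes, *Pdgfrb* was the 1 gene with a start peak, in both lists, and the intervals of the myeloid and fibroblast shares also take in the shares of all genes. Whether these B lineage and myeloid start peaks have a part in the differences between the lines was not tested.

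In wt cells 8 of the 9 genes had a peak within 1 kb of the start, a share of 88.9% (exact Clopper-Pearson 95% interval 51.8 to 99.7%, which covers counting error only), where 44.5% of all genes did. In ΔIkE120 cells 7 of the 9 did, a share of 77.8% (40.0 to 97.2%), where 43.9% of all genes did. *Zbtb7b* had no start peak in either list and *Tox* had one in wt cells alone. A start peak in wt cells alone was thus seen at 1 of 9 genes against 1.11% of all genes, and in ΔIkE120 cells alone at 0 of 9 against 0.482%. The bases covered in the gene plus 50 kb were at least 1.5 times lower in ΔIkE120 cells for 1 of 9 genes, *Tox*, where 8.63% of the 15243 genes covered in both lists were. No gene of the 9 was at least 1.5 times higher, where 1.54% of these 15243 genes were. These counts of 1 and 0 among so few genes say little about the group, and the genes are not independent, since the surroundings of *Rag1* and *Rag2* overlap and so do those of *Cd8a* and *Cd8b1*.

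**Figure D1:**
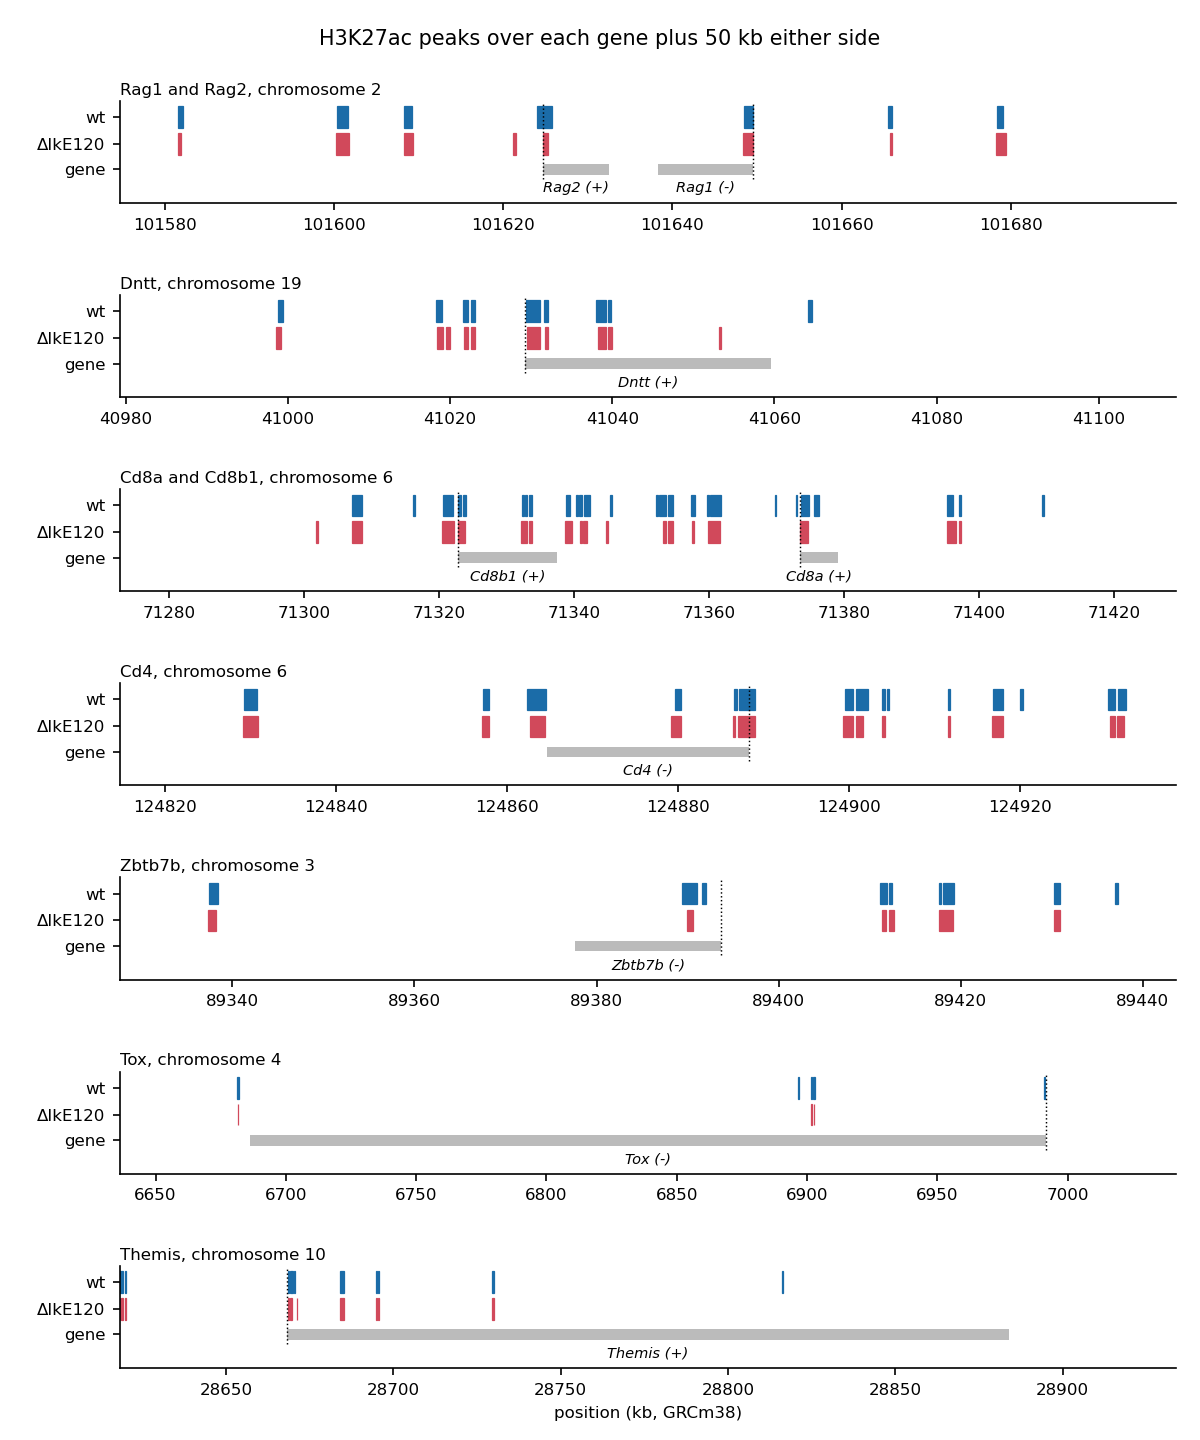
Position of every H3K27ac peak (blocks, with thin outlines) in wt (blue) and ΔIkE120 (red) cells over each gene (grey, strand in brackets) plus 50 kb either side, drawn to scale along the chromosome in kb of GRCm38, with dotted lines at the gene starts. The 26 wt and 17 ΔIkE120 peaks around *Cd8a* and *Cd8b1* form the densest group, and the wt peak at the *Tox* start has no counterpart in ΔIkE120 cells.

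Merged where they overlap, the surroundings of the 9 genes make 7 regions of 1371707 bases in all. They held 81 peaks over 58814 bases in wt cells and 67 peaks over 50679 bases in ΔIkE120 cells. The covered bases came to 0.862 times the wt value, close to the 0.879 times of the whole lists. Most peaks were found in both lines. Of the 81 wt peaks 64 overlapped a ΔIkE120 peak by at least 1 base, or 79.0% (68.5 to 87.3%), against 74.4% of the whole wt list. Of the 67 ΔIkE120 peaks 61 overlapped a wt peak, or 91.0% (81.5 to 96.6%), against 86.4% of the whole ΔIkE120 list. In bases, 43296 were covered in both lists, which was 73.6% of the wt and 85.4% of the ΔIkE120 bases of these regions, and 73.5% and 83.6% over the whole lists. All 9 genes had a ratio below 1, as did 71.6% of the 15243 genes covered in both lists. Among peaks that reached the median of their list in -log10 q, 6 of the 9 had a ratio above 1, namely *Rag1*, *Rag2*, *Cd8a*, *Cd8b1*, *Zbtb7b* and *Themis*, where 34.5% of 14117 genes did. The 6 are not separate observations, since *Rag1* and *Rag2* had the same stronger peaks and *Cd8a* and *Cd8b1* shared most of theirs. With as many top wt peaks as the ΔIkE120 list holds, the regions held 68 wt and 67 ΔIkE120 peaks, with a ratio of covered bases of 0.946. The order of the overlap shares was then turned, with 86.8% for wt and 83.6% for ΔIkE120 peaks.

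The peaks differed by place. At the starts of the 9 genes, 12 wt peaks had a median fold enrichment of 2.31 and a median -log10 q of 5.02, and 9 ΔIkE120 peaks had medians of 2.31 and 5.73. At the starts of other genes in the same regions, 15 wt peaks had medians of 3.93 and 13.6, and 13 ΔIkE120 peaks had medians of 3.98 and 12.4. The highest -log10 q at the start of each of the 8 wt genes lay between 3.58 for *Rag1* and 10.58 for *Cd8b1*, all below the median of 12.5 over the 9410 wt genes with a start peak. In ΔIkE120 cells the 7 genes lay between 4.20 for *Dntt* and 10.57 for *Cd8b1*, all below the median of 12.9 over 9278 genes. Hence the recombinase and coreceptor genes had start peaks that were weaker than those of most genes with one, while the bases covered around most of them were many, as the coverage per kb shows.

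**Figure D2:**
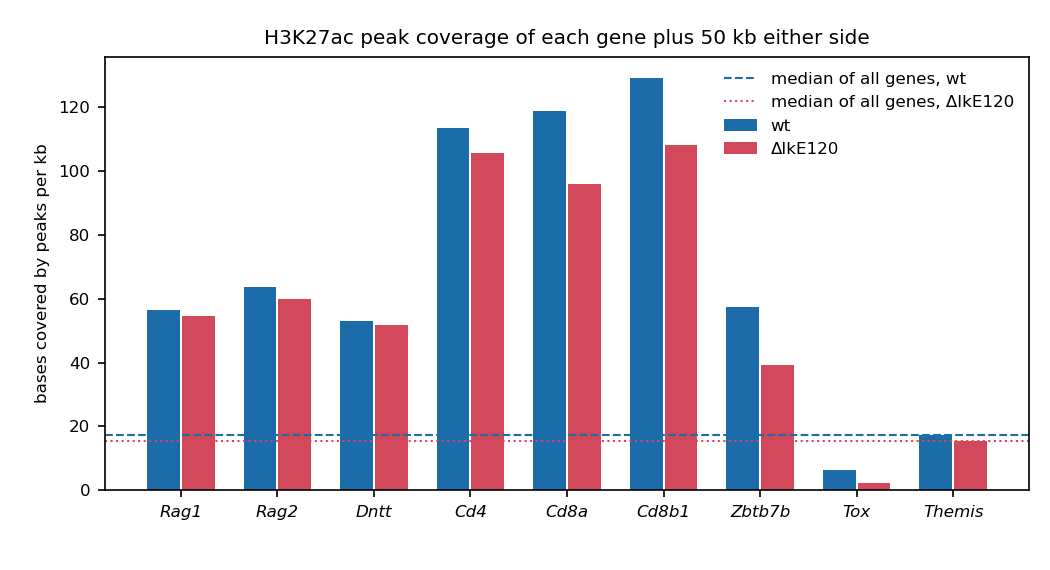
Bases covered by H3K27ac peaks per kb of each gene plus 50 kb either side (bars from 0) in wt (blue) and ΔIkE120 (red) cells, 1 library each, with lines at the median of 21142 genes (17.4 in wt, dashed, and 15.4 in ΔIkE120, dotted). *Cd4*, *Cd8a* and *Cd8b1* stand highest, *Themis* lies at the median and *Tox* below it. Most of the *Cd4* bases lie in peaks at starts of neighbouring genes.

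*Rag1* and *Rag2* lie tail to tail on chromosome 2 and share their surroundings. *Rag1* (chr2:101638252-101649532, minus strand) had 1 wt start peak at chr2:101648461-101649542, with a fold enrichment of 2.79 and a -log10 q of 3.58. Its ΔIkE120 start peak, chr2:101648334-101649494, had values of 3.03 and 5.73. Within 1 kb of the *Rag1* start 1011 bases were covered in wt cells and 963 in ΔIkE120 cells, a ratio of 0.953, nearly all of them inside the gene. The wt peak reached past the start, and the ΔIkE120 peak ended 38 bases short of it. *Rag2* (chr2:101624712-101632528, plus strand) had a wt start peak of 1703 bases at chr2:101624037-101625739, with a fold enrichment of 2.54 and a -log10 q of 4.56. The ΔIkE120 start peak of *Rag2*, chr2:101624668-101625354, was 687 bases long, with values of 3.03 and 8.96. The bases covered within 1 kb of the start were 1676 in wt and 687 in ΔIkE120 cells, a ratio of 0.410. Over the 9176 genes with a start peak in both lists this ratio had a median of 0.987 (quartiles 0.898 and 1.07), so that *Rag1* lay between the quartiles and *Rag2* below them.

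Over the body of *Rag1* plus 50 kb, 6281 bases were covered in wt cells and 6087 in ΔIkE120 cells, a ratio of 0.969. For *Rag2* these were 6876 and 6450, a ratio of 0.938. Both ratios lay near the median of 0.922 over all genes (quartiles 0.815 and 1.01). Per kb the wt values of 56.4 for *Rag1* and 63.8 for *Rag2* stood at the 89.1 and 92.2 percentile of all genes, above the median of 17.4. The region held 7 wt peaks, each of them overlapped by a ΔIkE120 peak, and 8 ΔIkE120 peaks. The 1 peak of ΔIkE120 cells alone, chr2:101621209-101621462, was short and weak, with 254 bases and a -log10 q of 1.72.

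Apart from the gene starts, the peak of the recombinase region with the highest -log10 q lay upstream of *Rag2*, a side known to hold elements that act on both genes. It was chr2:101600344-101601648 in wt cells, with a fold enrichment of 3.43 and a -log10 q of 7.88, and its near edge lay at -23064 bases from the *Rag2* start. In ΔIkE120 cells it was chr2:101600255-101601803, with values of 3.17 and 7.72, and its 1549 bases made it the largest ΔIkE120 peak of the region. In wt cells it had a higher -log10 q than the start of either *Rag* gene, and in ΔIkE120 cells a higher one than the *Rag1* start and a lower one than the *Rag2* start. The highest -log10 q of the whole region belonged to a neighbour, *Traf6*, a signalling ligase gene, with 19.1 in wt and 12.7 in ΔIkE120 cells. The ratios for *Rag1* and *Rag2* depended on which peaks were kept. With as many top peaks of the wt list as the ΔIkE120 list holds they stayed at 0.969 and 0.938, and among peaks that reached the median of their list both were 1.20. With the top 50% of that equal number both were 2.20, as the wt peak at the *Rag2* start was then left out.

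*Dntt* encodes terminal deoxynucleotidyl transferase (TdT), which adds nucleotides at the joints that the recombinase opens. The gene (chr19:41029275-41059525, plus strand) had a wt start peak of 1820 bases at chr19:41029300-41031119, the largest peak of its surroundings, with a fold enrichment of 1.98 and a -log10 q of 4.93. The ΔIkE120 start peak covered 1689 bases at chr19:41029436-41031124, with values of 2.03 and 4.20. Both began inside the gene, 25 and 161 bases after the start. In all, 6901 bases were covered over the gene plus 50 kb in wt cells and 6757 in ΔIkE120 cells, a ratio of 0.979. *Dntt* thus had the ratio nearest to 1 of the 9 genes. Among stronger peaks alone this did not hold, since the ratio was 0.108 when only the upper part of each list, from its median -log10 q, was kept. This value came from peaks close to the medians, as 5 ΔIkE120 peaks with a -log10 q of 4.20 to 4.41 fell just below the 4.47 of their list, while a wt peak with 4.38 and the wt start peak with 4.93 passed the 4.12 of theirs.

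The *Dntt* peaks formed a run, in which each peak lay within 12.5 kb of the next, from upstream of the start into the gene. In wt cells this run spanned chr19:41018299-41039883 and held 7 peaks over 5775 bases, which placed it 215 of 18382 runs and single peaks by covered bases. In ΔIkE120 cells it spanned chr19:41018416-41039917 and held 8 peaks over 5921 bases, 130 of 16720. With peaks within 15 kb joined, a distance chosen after seeing the data, the runs stood 322 of 16838 and 181 of 15423. The highest -log10 q in wt cells was 6.48, at chr19:41038037-41039248 inside the gene, where ΔIkE120 cells had a peak with 4.41. In ΔIkE120 cells the highest was 4.60, at the next peak, chr19:41039439-41039917. Peaks of 1 line alone were weak. In wt cells there was 1, chr19:41064134-41064650 with a -log10 q of 1.97. In ΔIkE120 cells there were 2, the higher being chr19:41053193-41053431 with 2.97.

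The coreceptor genes *Cd8a* and *Cd8b1*, which encode the chains of CD8, carried the densest peak coverage of the 9 in wt cells, while in ΔIkE120 cells *Cd4* came between them. *Cd8b1* (chr6:71322788-71337492, plus strand) had 129 covered bases per kb in wt cells and 108 in ΔIkE120 cells, the 99.9 and 99.7 percentile of all genes. *Cd8a* (chr6:71373427-71379171, plus strand) had 119 and 96.0, the 99.8 and 99.1 percentile. The genes lie next to each other, with enhancers known to be used at different stages between and around them, and they share most of these peaks. Over both genes plus 50 kb, wt cells had 26 peaks over 16381 bases and ΔIkE120 cells had 17 peaks over 14048 bases, a ratio of 0.858.

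Peaks within 12.5 kb of each other joined into a single run across the locus. In wt cells the run was chr6:71307089-71376247, with 23 peaks over 14833 bases, 4 of 18382 by covered bases. In ΔIkE120 cells it was chr6:71301886-71374737, with 15 peaks over 12414 bases, 6 of 16720. With peaks within 15 kb joined the runs were the same and stood 9 of 16838 and 13 of 15423. The *Cd8* locus was hence among the most extensively acetylated places of the genome in both lines. It was built of many peaks of modest fold enrichment, with a median of 1.95 in wt cells (1.55 to 2.81) and 2.16 in ΔIkE120 cells (1.82 to 2.84), below the medians of the lists. By -log10 q they were not all weak. The median was 3.46 in wt cells, below the 4.12 of the list, and 6.07 in ΔIkE120 cells, above the 4.47 of the list. The larger number of wt peaks came in part from how the same stretch was divided, since 3 ΔIkE120 peaks each overlapped at least 2 wt peaks and together took in 6 of them.

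At the *Cd8b1* start both lines had peaks on either side. The wt peak chr6:71320604-71322155 before the start had a fold enrichment of 2.31 and a -log10 q of 10.58, and its ΔIkE120 counterpart chr6:71320485-71322179 had 2.37 and 10.57. These were the highest -log10 q-values of the locus in both lists. After the start, wt cells had peaks at chr6:71322870-71323328 and chr6:71323537-71324000, with a -log10 q of 10.4 and 3.46, where ΔIkE120 cells had 1 peak, chr6:71322836-71323909, with 6.26. The bases covered within 1 kb of the start were 1079 in wt and 1345 in ΔIkE120 cells, a ratio of 1.25. This lay above the upper quartile of the genes with a start peak in both lists. The gap between the peaks held the start itself in both lists.

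At the *Cd8a* start the main wt peak was chr6:71373574-71374794, with a fold enrichment of 2.12 and a -log10 q of 7.98, and the ΔIkE120 peak was chr6:71373560-71374737, with 2.31 and 9.23. A weak second wt peak before the start, chr6:71372828-71373117, had a -log10 q of 1.52 and no ΔIkE120 counterpart. The main peak of either line lay inside the gene. The bases covered within 1 kb of the start were 1144 and 868, a ratio of 0.759, below the lower quartile. The largest peak of the locus in wt cells apart from those at the starts lay before *Cd8a* at chr6:71360113-71361716, with 1604 bases and a -log10 q of 6.45, and in ΔIkE120 cells at chr6:71359842-71361673, with 1832 bases and 7.42.

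Of the 26 wt peaks of the *Cd8* locus 8 had no overlap in ΔIkE120 cells, and of the 17 ΔIkE120 peaks 2 had none in wt cells. Over the whole lists 74.4% of wt and 86.4% of ΔIkE120 peaks overlapped one of the other list, so these numbers were near the background. The highest of the 8 was chr6:71369753-71369997, whose near edge lay at -3430 bases from the *Cd8a* start, with a -log10 q of 5.09. Among the 8832 wt peaks with no ΔIkE120 overlap, 171 or 1.94% had a value at least as high. The nearest ΔIkE120 peak was 3563 bases away. The higher of the ΔIkE120 peaks, chr6:71301886-71302120, had a -log10 q of 2.74. Over the gene plus 50 kb the ratio of covered bases was 0.808 for *Cd8a*, from 12558 to 10150 bases, and 0.837 for *Cd8b1*, from 14833 to 12414. With equal numbers of top peaks from each list the ratios were near 1, at 1.05 for *Cd8a* and 0.987 for *Cd8b1*. Among peaks that reached the median of their list in -log10 q the ratios were 1.28 for *Cd8a* and 1.17 for *Cd8b1*. The same stretch could pass in one list alone, as with wt chr6:71352602-71353639, which had a -log10 q of 3.49, and ΔIkE120 chr6:71353192-71353688, which had 6.14.

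*Cd4*, which encodes the coreceptor for MHC class II, had 14010 covered bases in wt and 13071 in ΔIkE120 cells over the gene plus 50 kb, a ratio of 0.933. These are 113 and 106 bases per kb, the 99.7 and 99.6 percentile of all genes. The gene (chr6:124864693-124888247, minus strand) had a broad peak across its start in both lines. In wt cells it was chr6:124887077-124889036, with 1960 bases, a fold enrichment of 2.35 and a -log10 q of 6.31. The ΔIkE120 peak was chr6:124886948-124889033, with 2086 bases and values of 2.33 and 5.19. The bases covered within 1 kb of the start were 1790 and 1787, a ratio of 0.998, so that the peaks lay over nearly the same bases around the start in both lines.

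Most of the bases covered around *Cd4* lay in peaks at the starts of neighbours in both lists, as the region is rich in genes. The coverage per kb is thus not a measure of *Cd4* alone. The highest -log10 q in wt cells, 16.5, was at the start of *P3h3*, where ΔIkE120 cells had 17.8, and the highest in ΔIkE120 cells, 21.5, was at the start of *Mlf2*, where wt cells had 15.3. The largest wt peak, with 2132 bases, lay at the start of *Gpr162*. Upstream of *Cd4*, on the side of a known enhancer of the gene, both lines had peaks that touched no gene start. The strongest of these in wt cells was chr6:124900799-124902239, with a -log10 q of 8.27, and in ΔIkE120 cells chr6:124899329-124900493, with 8.99. Each overlapped a peak of the other list.

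All 13 ΔIkE120 peaks around *Cd4* overlapped a wt peak, and 13 of the 15 wt peaks overlapped a ΔIkE120 peak, where 86.4% and 74.4% of the whole lists did. Of the remaining wt peaks the higher was chr6:124919988-124920325, with 338 bases, a fold enrichment of 2.71 and a -log10 q of 6.65. Among the 8832 wt peaks with no ΔIkE120 overlap, 32 or 0.362% had a value at least as high, which made it the most prominent peak of wt cells alone in the 7 regions. It lay -31741 bases from the *Cd4* start, beyond 1 kb of any gene start, and the nearest ΔIkE120 peak was 1969 bases away. The run of peaks from inside *Cd4* across its upstream side held 12 peaks over 9561 bases in wt cells, 25 of 18382, and 8 peaks over 7470 bases in ΔIkE120 cells, 53 of 16720. The extent of the runs depended on the distance chosen, since the next ΔIkE120 peaks, at the *Mlf2* start, lay 12507 bases on, where wt cells had theirs within the run. When peaks within 15 kb were joined, the ΔIkE120 run took in the *Mlf2* peaks and, across a space of 14801 bases on the other side, those of *Gpr162* and *P3h3*, which the wt run did not. The order was then turned, with 9561 bases in wt cells, 57 of 16838, and 12 peaks over 11425 bases in ΔIkE120 cells, 17 of 15423. The runs include starts of neighbouring genes.

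*Zbtb7b* encodes ThPOK, the factor that commits thymocytes to the CD4 lineage. The gene (chr3:89377644-89393673, minus strand) had no peak within 1 kb of its start in either list. The nearest peak was inside the gene, 1661 bases from the start in wt cells and 3124 in ΔIkE120 cells. In wt cells it was chr3:89391538-89392012, with a -log10 q of 1.53 and no ΔIkE120 overlap. The second wt peak inside the gene, chr3:89389409-89391056, had 1648 bases, a fold enrichment of 2.64 and a -log10 q of 3.33, and the ΔIkE120 peak there, chr3:89389973-89390549, had 577 bases and values of 3.19 and 3.26. Inside the gene the peaks thus took up 2123 bases in wt cells and 577 in ΔIkE120 cells, a ratio of 0.272.

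Over *Zbtb7b* plus 50 kb, wt cells had 6647 covered bases and ΔIkE120 cells had 4564, a ratio of 0.687. This lay just short of the 1.5 fold, at the 9.96 percentile of the ratios of all genes. With flanks of 20 kb and 100 kb it was past this fold, at 0.468 and 0.60. The share of all genes past the fold was counted for 50 kb alone. With equal numbers of top peaks the ratio was 0.785, not past the fold. The remaining peaks of the region, 7 in wt cells and 5 in ΔIkE120 cells, were at the starts of other genes. The highest in wt cells, with a -log10 q of 15.4, lay at the starts of *Cks1b* and *Shc1*, and the highest in ΔIkE120 cells, with 17.3, at *Pygo2*. The largest ΔIkE120 peak, with 1527 bases, was also that of *Cks1b* and *Shc1*. The highest wt peak without an overlap was the weak peak inside *Zbtb7b* itself. Among peaks that reached the median of their list in -log10 q the ratio was 1.08, and the peaks inside *Zbtb7b* were not among them.

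*Tox* encodes an HMG box factor that DP cells need to give rise to CD4 T cells. It was the sparsest of the 9 loci, with 6.22 covered bases per kb in wt and 2.37 in ΔIkE120 cells, the 32.2 and 28.8 percentile of all genes. Over the gene (chr4:6686353-6991557, minus strand) plus 50 kb wt cells had 5 peaks over 2519 bases and ΔIkE120 cells had 3 peaks over 960 bases. The ratio of 0.381 stood at the 1.11 percentile of all genes. It lay between 0.354 and 0.381 under each of 6 other settings of flank and peak list, but these seldom changed the peaks. With flanks of 20 kb or 100 kb and with equal numbers of top peaks the same 2519 and 960 bases entered. The stricter lists both kept 982 wt and 348 ΔIkE120 bases. The narrow range therefore says little about how stable the ratio is.

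The wt start peak of *Tox* was chr4:6990740-6991106, with 367 bases, a fold enrichment of 4.3 and a -log10 q of 5.10. It began 451 bases inside the gene, and the nearest ΔIkE120 peak was 87901 bases from it. Among the 8832 wt peaks with no ΔIkE120 overlap, 168 or 1.9% had a value at least as high. Among the 234 genes with a start peak in wt cells alone, 36 or 15.4% had one at least as high, and their median was 2.64. The *Tox* start peak was thus stronger than most peaks found in wt cells alone, though well below the median of 12.6 at starts with a peak in both lists. In ΔIkE120 cells the strongest peak of the locus was the one after the end of the gene, chr4:6681448-6681795, with a -log10 q of 4.86, where wt cells had chr4:6681212-6682085, with 3.93 and 874 bases. Deep inside *Tox* both lines had a pair of peaks, of which wt chr4:6902265-6902879 had a -log10 q of 5.03 and ΔIkE120 chr4:6902519-6902839 had 3.51. The other peak of the pair had the lower value in wt cells, 2.66 at chr4:6901580-6901929, and the higher in ΔIkE120 cells, 3.95 at chr4:6901643-6901933.

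*Themis* encodes a T cell receptor signalling protein needed for positive selection of DP cells. The gene (chr10:28668360-28883820, plus strand) had 2 start peaks in each line, all just inside the gene. In wt cells these were chr10:28668504-28668770, with a -log10 q of 3.98, and chr10:28669144-28670030, with 6.58. The ΔIkE120 peaks were chr10:28668473-28668836, with 4.45, and chr10:28669147-28669881, with 2.59. Within a list the order of the peaks was thus turned, with the outer peak the higher in ΔIkE120 cells and the inner one in wt cells. The bases covered within 1 kb of the start were 484 in wt and 578 in ΔIkE120 cells, a ratio of 1.19. This lay above the upper quartile of the genes with a start peak in both lists.

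Over *Themis* plus 50 kb 5480 bases were covered in wt cells and 4829 in ΔIkE120 cells, a ratio of 0.881, the median of the 9 genes. It was above 1 when fewer peaks were kept, at 1.22 with equal numbers of top peaks and 1.17 among peaks that reached the median of their list. Per kb these were 17.4 and 15.3 bases, each at the 49.9 percentile of all genes. *Themis* was thus marked over as much of its surroundings as a typical gene, unlike the coreceptor genes. The highest -log10 q-values of the region were far upstream, 7.54 at chr10:28619709-28620220 in wt cells and 6.64 at chr10:28618636-28619291 in ΔIkE120 cells. The largest wt peak, chr10:28683996-28685195, covered 1200 bases inside the gene with a -log10 q of 3.26, and the largest ΔIkE120 peak, chr10:28684189-28685193, covered 1005 bases there with 5.03. The highest peaks without an overlap were weak in both lists, with 1.78 at chr10:28816192-28816406 in wt cells and 1.77 at chr10:28671104-28671377 in ΔIkE120 cells.

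The start peaks of the recombinase genes could be set beside those of their partners and of genes of other stages. Of 13 genes that act with the recombinase in cutting and end joining, 10 had a start peak in wt cells and 9 in ΔIkE120 cells, among them *Hmgb1*, *Hmgb2*, *Xrcc5* and *Prkdc*. These are shares of 76.9% (46.2 to 94.96%) and 69.2% (38.6 to 90.9%), where 44.5% and 43.9% of all genes had one. *Polm*, a polymerase related to TdT, had one in wt cells alone, with a -log10 q of 10.4, but within 2.5 kb of its start both lists had a peak. Of 12 genes of the DN stage, 5 had a start peak in both lists, among them *Kit*, *Notch1*, *Notch3* and *Ptcra* with -log10 q-values of 7.61, 8.47, 7.97 and 4.06 in wt cells. *Il2ra*, the first gene of this list, had no start peak in either library. Of 11 other genes of the DP stage, 7 had a start peak in wt and 6 in ΔIkE120 cells, *Cd2* being the gene with one in wt cells alone. This peak covered 123 bases within 1 kb of the *Cd2* start, and within 2.5 kb both lists had a peak.

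Of 10 genes of mature T cells, 4 had a start peak in wt cells and 3 in ΔIkE120 cells, with *Runx3*, *Ccr7* and *Itgb7* in both. The median ratio of covered bases was 0.720 over the 9 mature T cell genes covered in both lists, of which 3 were at least 1.5 times lower in ΔIkE120 cells, where 8.63% of all genes covered in both lists were. It was 0.855 for the other DP genes, 0.893 for the DN genes, 0.902 for the end joining genes and 0.95 for the T lineage genes, where it was 0.881 for the 9 recombinase and DP genes. The B lineage genes had a median of 0.831, with 3 of 8 at least 1.5 times lower, namely *Blk* at 0.241 and the neighbours *Vpreb1* and *Igll1*, both at 0.585 with the same covered bases. *Zap70* of the T lineage, with 0.501, and *Cd44* of the DN genes, with 0.617, were also past this fold, and no gene of the end joining or other DP lists was. Over all genes covered in both lists the median was 0.922. The shares with a start peak in wt cells, 41.7% of the DN genes and 40.0% of the mature T cell genes, lay close to the 44.5% of all genes, and the 63.6% of the other DP genes had an interval of 30.8 to 89.1% around it.

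**Figure D3:**
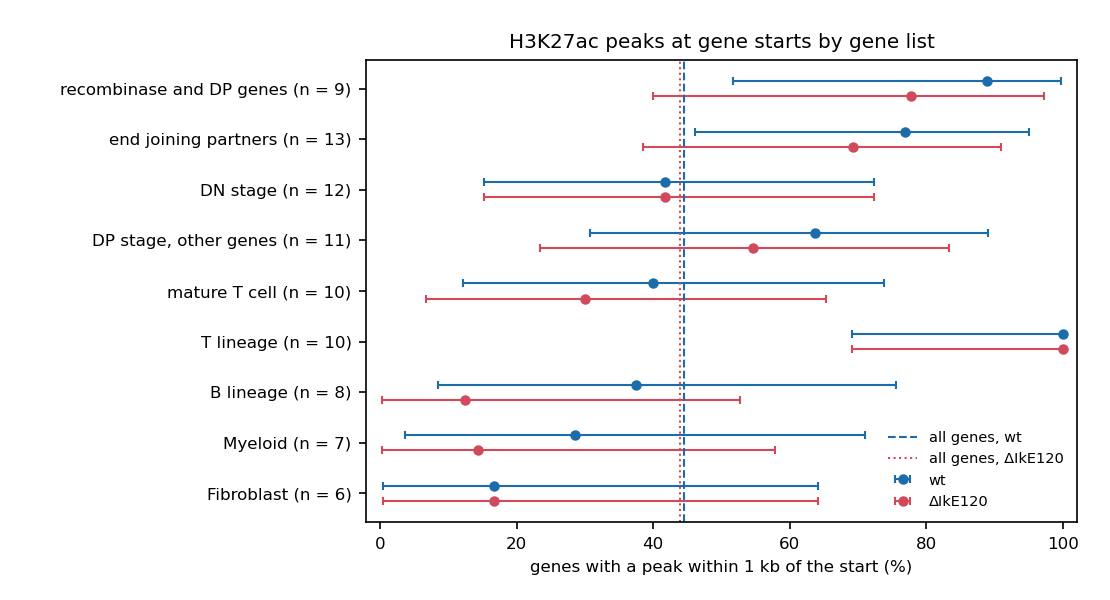
Share of genes (%) with an H3K27ac peak within 1 kb of the start in each gene list, in wt (blue) and ΔIkE120 (red) cells, with exact Clopper-Pearson 95% intervals (bars, counting error only) and the shares of all genes as lines (44.5% wt, dashed, and 43.9% ΔIkE120, dotted). T lineage genes stand at 100% in both lines, the recombinase and DP genes at 88.9 and 77.8%, and the DN genes at 41.7% in both.

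Promoter sequences were set beside the peaks, since the edges of several start peaks fell close to the start. RefSeq promoters of build GRCm38.p6, from 250 bases before to 50 bases after a start, were found for 6 of the 9 genes, and *Cd4*, *Cd8b1* and *Tox* had no entry. Of the 300 bases, wt peaks covered all 300 at *Rag2*, 60 at *Rag1* and 25 at *Dntt*, and ΔIkE120 peaks covered 94, 12 and 0. None was covered at *Cd8a*, *Zbtb7b* or *Themis* in either list. Among all 21263 promoters, 42.1% had a covered base in wt and 41.7% in ΔIkE120 cells, with a median of 300 bases where they did. The main start peak of *Rag1*, *Dntt*, *Cd8a* and *Themis* thus lay inside the gene rather than over the promoter. The promoters were also poor in CG, with 1 to 8 CG dinucleotides against a median of 13.

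Short motifs were searched on both strands, and each share is that of all promoters of this length. The E-box was written as CANNTG and occurs in 69.0% of them. The TATA box was written as TATAAA and occurs in 12.6%. For the core recognised by Ikaros, the protein of *Ikzf1*, the letters were TGGGAA, with a share of 24.5%. A Runx motif was taken as TGTGGT and found in 15.0%, and a GATA core as AGATAA and found in 9.65%. The cyclic AMP response element, TGACGTCA, occurs in 2.23%. The promoters of *Rag1*, *Rag2*, *Dntt*, *Cd8a* and *Zbtb7b* are printed 5′ to 3′ on the strand of the gene, because a peak edge lies in or beside the first 4 and no peak was called near the last, with motif matches in capitals. *Rag1* (chr2:101649483-101649782, minus strand) has 4 E-boxes, 1 TGGGAA and 2 TGTGGT, of which the first shares bases with an E-box. *Rag2* (chr2:101624462-101624761, plus strand) has 2 E-boxes. *Dntt* (chr19:41029025-41029324, plus strand) has 3 E-boxes and 1 AGATAA. *Cd8a* (chr6:71373177-71373476, plus strand) has 3 E-boxes and 1 TGGGAA, which reads TTCCCA here. *Zbtb7b* (chr3:89393329-89393628, minus strand, the outer of 2 entries) has 2 E-boxes and 1 TGGGAA. The TATA box and the cyclic AMP response element were found in none of these windows, and an E-box in each, as in most promoters. A match describes the letters and not binding.
Rag1: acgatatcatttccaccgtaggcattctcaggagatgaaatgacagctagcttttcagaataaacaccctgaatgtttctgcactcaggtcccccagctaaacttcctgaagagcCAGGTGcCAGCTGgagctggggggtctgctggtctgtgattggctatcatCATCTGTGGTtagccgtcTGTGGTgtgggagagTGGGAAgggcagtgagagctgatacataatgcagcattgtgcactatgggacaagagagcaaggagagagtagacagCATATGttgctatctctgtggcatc
Rag2: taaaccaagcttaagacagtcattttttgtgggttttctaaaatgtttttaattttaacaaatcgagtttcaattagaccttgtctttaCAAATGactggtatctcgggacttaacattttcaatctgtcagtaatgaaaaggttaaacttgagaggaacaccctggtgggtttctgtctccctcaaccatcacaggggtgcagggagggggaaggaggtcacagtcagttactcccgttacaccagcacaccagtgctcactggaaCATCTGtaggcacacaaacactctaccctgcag
Dntt: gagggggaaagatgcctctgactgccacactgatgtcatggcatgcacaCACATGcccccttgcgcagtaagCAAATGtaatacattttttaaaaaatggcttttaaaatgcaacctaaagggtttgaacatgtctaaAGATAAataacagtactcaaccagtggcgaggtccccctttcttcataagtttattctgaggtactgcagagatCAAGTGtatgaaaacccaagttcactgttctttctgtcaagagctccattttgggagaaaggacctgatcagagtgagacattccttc
Cd8a: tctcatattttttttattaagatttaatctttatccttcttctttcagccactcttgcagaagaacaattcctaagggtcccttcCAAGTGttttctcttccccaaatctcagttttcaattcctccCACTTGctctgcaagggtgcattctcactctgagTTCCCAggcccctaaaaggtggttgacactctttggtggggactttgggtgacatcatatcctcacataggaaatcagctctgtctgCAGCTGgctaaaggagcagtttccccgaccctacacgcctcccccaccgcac
Zbtb7b: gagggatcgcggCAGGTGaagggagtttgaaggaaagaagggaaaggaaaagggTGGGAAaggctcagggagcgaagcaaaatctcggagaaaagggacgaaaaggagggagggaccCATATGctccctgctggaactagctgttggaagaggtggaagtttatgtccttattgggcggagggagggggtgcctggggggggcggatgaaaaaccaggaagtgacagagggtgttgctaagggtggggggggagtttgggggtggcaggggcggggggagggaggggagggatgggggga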

How the data were processed

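The deposited H3K27ac peak lists of wt and ΔIkE120 P5424 cells were used, 1 library each, with groups taken from the sample labels. The 4C libraries of the series, 6 in number, were not used here. The submitters' processing notes name Bowtie 1.0.0, Bowtie2 2.3.4.3, MACS2 2.1.1, deepTools 3.2.1 and GRCm38. The calling settings, the control used for each list and the depth are not given in the sources used here. The authors called peaks per library and deposited a score, a fold enrichment, a -log10 p-value and a -log10 q-value for each peak. The deposited score is close to 10 times the -log10 q-value and was not used further.

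Genes were RefSeq GRCm38.p6 protein-coding records. The strand came from the RefSeq promoter table or, by symbol, from GENCODE M1 for 96.6% of 21887 genes, and no coordinate was converted between builds. Exons were not analysed here. Peaks were assigned to a gene body plus 50 kb and to its start with 1 kb either side. Peaks sharing at least 1 base counted as overlapping, and covered bases were compared among genes covered in both lists, with 1.5 fold as threshold. The overlap code was tested on simulated data. The members and lists were chosen with earlier results of these data known. Named were all 9 genes, each start peak, and per gene and list the peak of highest -log10 q, the highest without an overlap and the largest, the genes whose starts those peaks touch, and up to 4 genes of each list in order. Some genes of the lists are not reported here by name. Other genes and peaks named, the runs of peaks within 12.5 kb, the shares of unshared peaks by -log10 q and the covered promoter bases were chosen after seeing the data. Alternatives were other flanks, other distances from the start, all annotated starts, stricter or equal numbers of peaks, separate counting of overlapping regions, omission of other genes' starts, joining of peaks within 15 kb and a minimum overlap set at 50% of a peak. The analysis ran in Python 3.11.15, with scipy 1.17.1 for intervals, pandas 2.3.3 and numpy 2.4.6 for tables, and matplotlib 3.10.9 for plots.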

Additional observations from a re-analysis of the deposited data

How the results depend on the processing

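The ratio of covered bases over the 7 regions lay between 0.834 and 1.00 under the alternatives, the highest value coming from equal numbers of top peaks at 50% of the shorter list. The number of genes with a start peak lay between 6 and 9 of 9 in wt cells and between 5 and 7 in ΔIkE120 cells. The shares of all genes were counted for 1 kb and the full lists alone, so the other counts have no background beside them. The numbers of peaks were 30 in wt and 24 in ΔIkE120 cells over the gene bodies without flanks, 39 and 35 with peaks that reached the median of their list in -log10 q, and 37 and 35 with equal numbers of top peaks at 50% of the shorter list, since shorter regions or fewer peaks entered. With equal numbers of top peaks from each list the numbers were nearly the same, 68 and 67, and the ratio of covered bases was 0.946. The shares of peaks found in both lines were then 86.8% for wt and 83.6% for ΔIkE120 cells. With an overlap of 50% of the peak, the share of peaks in the 7 regions found in both lines was 67.9% for wt and 86.6% for ΔIkE120 cells. Over all peaks, sharing was counted for the full lists and an overlap of at least 1 base alone. None of these shares can thus be set against a background. Single genes moved more, between 0.108 and 1.04 for *Dntt*, 0.717 and 2.20 for *Rag1*, 0.625 and 2.20 for *Rag2*, 0.625 and 1.28 for *Cd8a*, 0.272 and 1.08 for *Zbtb7b*, 0.893 and 1.19 for *Cd4*, 0.875 and 1.23 for *Cd8b1* and 0.887 and 1.22 for *Themis*. *Tox* lay between 0.354 and 0.381, but most of the settings kept the same few peaks there. The counts in the gene lists under other starts, distances and peak numbers were alternatives chosen after seeing the data. B lineage start peaks numbered 5 in wt and 3 in ΔIkE120 cells within 2.5 kb, a distance at which the share of all genes was not counted. Myeloid start peaks in wt cells numbered 1 with equal numbers of top peaks. No paired analysis was possible because each group has 1 library. The unknown depth limits every weak peak, and a peak missing from a list is one that was not called, not one shown to be absent.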
